A study of Caenorhabditis elegans with 2 samples.

Results

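Of 26266 peaks in the list that the authors called on both replicates together, 260 had their summit within 500 bp of a small nucleolar RNA (snoRNA) gene and more than 500 bp from every tRNA gene. These 260 summits, called snoRNA summits below, were chosen by position alone, without use of any peak score. Before the tRNA rule there were 264. The assay was chromatin immunoprecipitation followed by sequencing (ChIP-seq), which maps where a protein sits on the genome, and the protein was SOMI-1, a zinc finger protein of the nematode Caenorhabditis elegans. Whole young adults of strain OP752, mixed in sex, were used at 65.5 hours, synchronised as L1 larvae by starvation after bleaching. They carried the unc-119(tm4063) allele and the transgene wgIs752, which holds somi-1::TY1::EGFP::3xFLAG together with unc-119(+) as a rescue marker. Chromatin sonicated to 200 to 800 bp was precipitated with an anti-GFP antibody in 2 biological replicates. Both replicates belong to 1 group, no other condition was measured, and the profile is that of the tagged protein in all tissues of the animal together.

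snoRNAs are short nucleolar RNAs that guide the chemical modification of other RNAs, mostly ribosomal RNA. Box C/D snoRNAs guide ribose methylation by fibrillarin, and box H/ACA snoRNAs guide pseudouridylation by dyskerin. In animals many lie in introns of protein-coding genes and are cut out of the host transcript. In C. elegans some snoRNA genes, intronic ones among them, are known to have promoters of their own, and part of these resemble the promoters of tRNA genes, with an A box and a B box read by RNA polymerase III.

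The sequences just upstream of the snoRNA genes held recurring letters, and they are shown first because many of the strongest snoRNA summits lay on them. Each is read 5′ to 3′ on the strand of the snoRNA gene, from 100 bases before its annotated start to 10 bases into the gene, in the RefSeq copy of WBcel235, an assembly also known as ce11. Capitals mark TGGCNNAG (called the A-box-like word here), GTTCNA (the B-box-like word) and TGTCGG (the third word). These 3 words were chosen after the upstream sequences had been looked at. The genes shown were likewise picked to display the words, among those with a summit of the authors' thresholded list upstream. The first 6 hold the A-box-like and the B-box-like word. T03F7.8 lies on the plus strand (chrV:11314158-11314267), opposite to cutl-18, in whose intron it sits, and W03C9.9 on the plus strand outside any protein-coding gene (chrII:11960798-11960907). F55A11.10 lies in an intron of F55A11.6 on the plus strand (chrV:11782892-11783001), and Y43F8C.22 in an intron of Y43F8C.7 on the minus strand (chrV:19643178-19643287). T06C12.16 on the minus strand (chrV:15873917-15874026) and F32E10.10 on the plus strand (chrIV:7574022-7574131) are free-standing.
T03F7.8: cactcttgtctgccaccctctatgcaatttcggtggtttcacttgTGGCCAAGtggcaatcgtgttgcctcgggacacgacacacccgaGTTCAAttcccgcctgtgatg
W03C9.9: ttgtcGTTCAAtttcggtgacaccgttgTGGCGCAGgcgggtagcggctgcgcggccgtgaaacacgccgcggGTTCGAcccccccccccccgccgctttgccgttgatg
F55A11.10: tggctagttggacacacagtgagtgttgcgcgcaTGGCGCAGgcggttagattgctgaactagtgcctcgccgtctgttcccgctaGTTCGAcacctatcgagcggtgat
T06C12.16: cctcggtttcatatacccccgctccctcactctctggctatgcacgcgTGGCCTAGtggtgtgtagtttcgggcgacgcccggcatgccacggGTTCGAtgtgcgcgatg
F32E10.10: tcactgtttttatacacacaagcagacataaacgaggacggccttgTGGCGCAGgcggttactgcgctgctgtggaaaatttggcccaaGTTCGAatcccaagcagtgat
Y43F8C.22: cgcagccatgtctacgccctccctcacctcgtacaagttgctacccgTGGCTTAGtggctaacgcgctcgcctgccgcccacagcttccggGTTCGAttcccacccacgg

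Another 3 genes hold the third word and neither of the other 2. ZK994.7 lies on the plus strand (chrV:8500479-8500588) in an intron of the peroxidasin gene pxn-1, and C16D9.11 on the minus strand (chrV:8228960-8229069) in an intron of the receptor tyrosine kinase gene rol-3. T26A8.6 is free-standing on the minus strand (chrIV:8428730-8428839). The last sequence, M7.15, free-standing on the plus strand (chrIV:11083047-11083156), holds none of the words and is given as an example of the upstream regions without them.
ZK994.7: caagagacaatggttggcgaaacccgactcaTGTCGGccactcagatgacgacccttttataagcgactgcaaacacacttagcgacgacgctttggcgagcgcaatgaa
C16D9.11: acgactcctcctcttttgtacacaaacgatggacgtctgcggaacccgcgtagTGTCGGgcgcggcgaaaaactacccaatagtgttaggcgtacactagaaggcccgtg
T26A8.6: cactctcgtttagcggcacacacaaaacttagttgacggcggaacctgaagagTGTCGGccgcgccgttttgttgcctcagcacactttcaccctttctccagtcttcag
M7.15: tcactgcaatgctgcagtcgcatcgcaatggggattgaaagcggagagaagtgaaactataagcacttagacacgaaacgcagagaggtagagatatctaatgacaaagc

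The snoRNA summits stood high in the list. The authors' thresholded list, made with an irreproducible discovery rate (IDR) procedure, holds the 1667 joint peaks of highest signal, and 84 of the 260 snoRNA summits were kept in it, a share of 32.3% (Wilson 95% interval 26.9 to 38.2%). Of all joint peaks 6.35% were kept. The signal is the authors' own score per peak, without a stated unit, and is used here only within a list. All intervals cover counting error only, and the read depth is unknown. No test was made, since neighbouring peaks are not independent and only 1 group was measured.

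By signal, the snoRNA summits had a median of 59.7, with a range of 28.7 to 500.3, against a median of 39.3 for the other 26006 joint peaks. Their median rank, as a percent of the list length counted from the highest signal, was 16.6%, with quartiles of 4.04% and 46.7%, against 50.3% for the other peaks. The strongest 10% of the list held 103 of them (39.6%), and 52 ranked below the list's median. They occurred over the whole list and were densest near its head. Among the 100 strongest joint peaks there were 5 snoRNA summits, beside 260 among all 26266.

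Other small RNA classes differed in this share. Of the 539 summits within 500 bp of a tRNA gene, 177 were kept (32.8%, interval 29.0 to 36.9%), a share whose interval overlaps that of the snoRNA summits almost entirely. For genes of small nuclear RNAs (snRNAs), the spliceosomal class, 13 of 81 summits were kept (interval 9.63 to 25.5%), and this interval lies below that of the snoRNA summits. Kept shares were 13.5% near lincRNA genes, 12.2% near antisense RNA genes and 11.8% near miRNA genes. They were 4.82% near piRNA genes, 4.60% near protein-coding genes and 2.41% near pseudogenes. By signal, summits near tRNA genes stood above the snoRNA summits, with a median of 69.8 and a median rank of 11.4%. Summits near snRNA genes had 51.8 and 24.1%. Few snoRNA summits belonged to other small RNA genes as well: 3 lay within 500 bp of an snRNA gene, 2 of a miRNA gene and 4 of a piRNA gene.

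**Figure D1:**
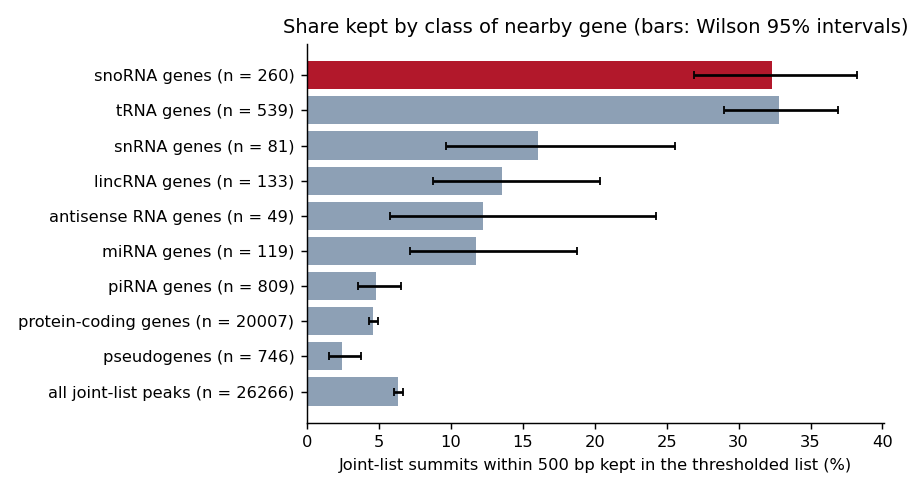
Percent of joint-list summits within 500 bp of a gene of each class that were kept in the thresholded list, with Wilson 95% intervals as black bars and the number of summits beside each class. The snoRNA bar (32.3%, top, red) and the tRNA bar (32.8%) are the longest, and the bar of all joint peaks (6.35%) stands at the bottom.

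Seen from the genes, 214 of 344 snoRNA genes over 500 bp from tRNA genes had at least 1 joint summit within 500 bp (62.2%, interval 57.0 to 67.2%), and 51 of these had 2 or more. Over all genes of the other classes together the share was 37.1%, a value in which the many short piRNA genes (12.3%) weigh heavily. By class it was 55.7% of protein-coding genes, 52.0% of snRNA genes (interval 43.3 to 60.5%, which overlaps that of the snoRNA genes), 44.8% of lincRNA genes and 43.6% of miRNA genes. A thresholded summit was near 83 snoRNA genes (24.1%, interval 19.9 to 28.9%), against 8.66% of snRNA genes, 8.33% of lincRNA genes, 6.23% of miRNA genes and 5.14% of protein-coding genes. Gene length differs between these classes and widens the window: the median was 130 bp for snoRNA genes, 109 bp for snRNA genes and 2010 bp for protein-coding genes. The 260 summits had 209 different nearest snoRNA genes. By chromosome there were 58 summits for 74 genes on I, 58 for 71 on II, 42 for 54 on III, 41 for 59 on IV, 46 for 55 on V and 15 for 33 on X.

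The snoRNA summits were found in both replicates more often than joint summits in general. The summit lay inside peaks of both single-replicate lists for 187 of 260 (71.9%, interval 66.2 to 77.0%), against 43.8% of all joint summits. A further 35 lay in a peak of replicate 1 alone, 35 in a peak of replicate 2 alone, and 3 in neither. The share in both was not particular to snoRNA genes: it was 71.6% near snRNA genes, 79.4% near tRNA genes and 64.7% near miRNA genes. Near piRNA genes it was 38.8%. Of the 84 kept snoRNA summits, 82 were inside peaks of both. This count is partly set in advance, since the thresholded list rests on both replicates. The same share over all kept peaks is not given here. The kept snoRNA summits not inside peaks of both were those at C16A3.11 and F25H2.15. The summit at C16A3.11, in an intron of the ribosomal protein gene rps-13, lacked a peak in replicate 2, and the one at F25H2.15 lacked one in replicate 1.

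At the 187 summits in both, the median signal was 44.3 in the list of replicate 1 and 46.5 in that of replicate 2, and replicate 1 had the lower value at 90. Across these summits the replicate signals had a Spearman correlation of 0.784 and a Pearson correlation of 0.805 on the log2 scale. These are descriptions: the points share the 2 libraries and the control alignment, both replicates also went into the joint list, and neighbouring summits can lie in the same replicate peak.

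**Figure D2:**
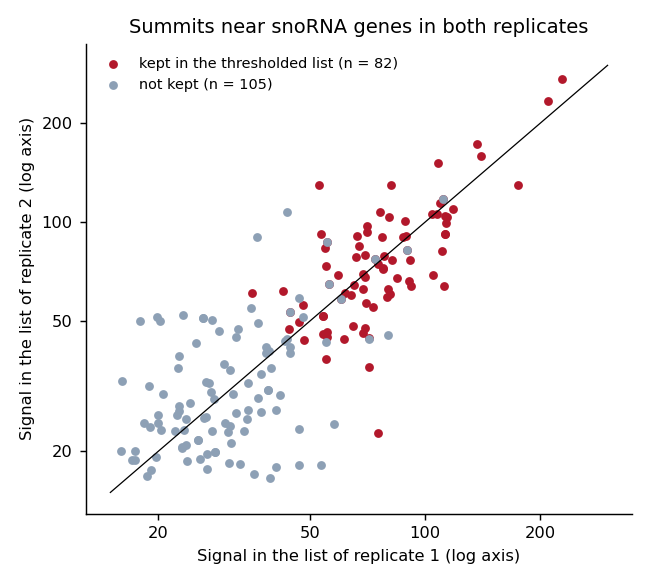
Signal of the replicate peak that holds each snoRNA summit, replicate 1 against replicate 2, both on log axes, for the 187 summits in both lists. Red points are the 82 kept summits, grey points the 105 not kept, and the line marks equal values; kept summits fill the upper right of the cloud.

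The kept summits gathered just upstream of the snoRNA start. The offset of a summit is its distance from the 5′ end of the nearest snoRNA gene on that gene's strand, negative upstream. Over all 260 the median offset was 12.5 bp, with quartiles of -77 and 238.75 bp, and 123 were upstream (47.3%, interval 41.3 to 53.4%). The 84 kept summits had a median offset of -28.5 bp, with quartiles of -69.25 and 13.5 bp, and 57 were upstream (67.9%). The 176 summits not kept had a median of 94.5 bp and 66 upstream (37.5%).

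Within 1 to 100 bp upstream lay 41 of the 84 kept summits (48.8%, interval 38.4 to 59.3%) and 25 of the 176 not kept (14.2%, interval 9.81 to 20.1%), so the intervals did not overlap. Read the other way, 41 of the 66 summits in these 100 bp were kept (62.1%, interval 50.1 to 72.9%), with a median signal of 118. Inside the snoRNA gene 18 of 50 were kept (36.0%), more than 100 bp upstream 16 of 57 (28.1%), and past the gene end 9 of 87 (10.3%). Of the 26 strongest snoRNA summits, all of them kept, 21 were upstream and 16 within 1 to 100 bp.

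Some snoRNA summits also lay in promoters of protein-coding genes. A promoter window runs here from 1000 bp before to 200 bp after any annotated 5′ end of a protein-coding transcript, and it held 38.8% of the 260 snoRNA summits (interval 33.1 to 44.9%), against 31.4% of all joint summits. Outside such windows, 31 of the 48 summits at 1 to 100 bp upstream were kept (64.6%), and inside them 10 of 18, so the kept share in these 100 bp was no smaller away from annotated promoters.

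The same 100 bp held smaller shares of the kept summits of other classes. They held 26.0% of the 177 kept summits near tRNA genes, 12.8% of the 39 near piRNA genes and 8.14% of the 921 near protein-coding genes. Near snRNA genes it was 3 of 13 (23.1%) and near miRNA genes 2 of 14 (14.3%), small counts for which no intervals were made. Gene length enters as well: 100 bp is a smaller part of the window around a long gene, and the median protein-coding gene had 2010 bp. As background, tRNA genes carry their A and B boxes inside the transcribed gene, not before it.

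**Figure D3:**
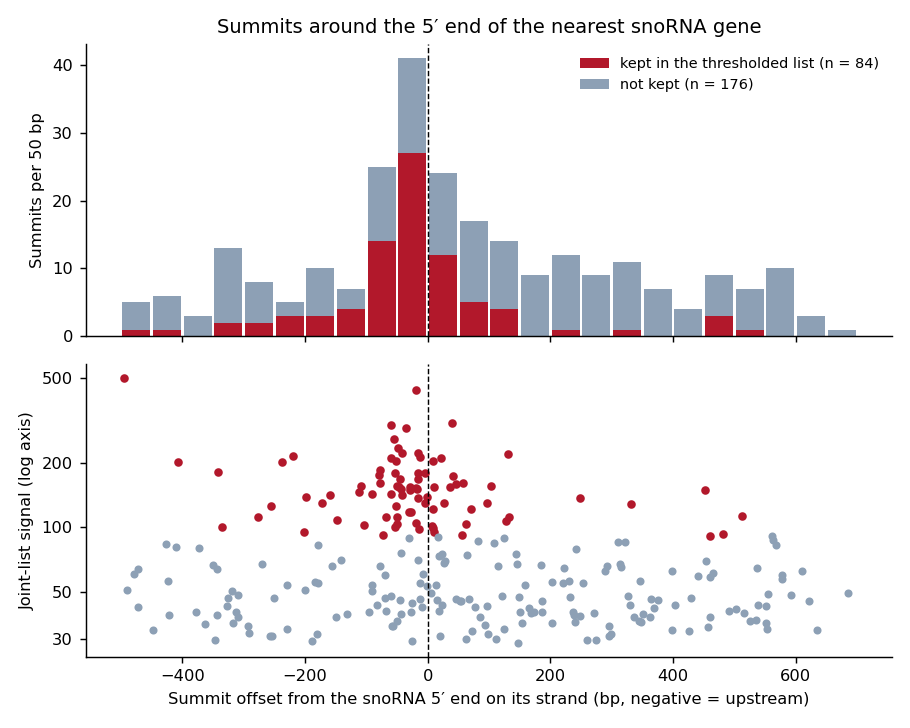
Top, number of snoRNA summits per 50 bp of offset from the snoRNA 5′ end, kept (red, n = 84) stacked under not kept (grey, n = 176). Bottom, the joint-list signal of each summit on a log axis against the same offset; 41 kept summits stand within 1 to 100 bp upstream, and past 150 bp downstream most points are grey and low.

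The strongest snoRNA summit was not at a snoRNA start. It lay on chromosome II 495 bp upstream of C06A1.9, near the edge of the 500 bp rule, with a joint signal of 500.3 (rank 11 of the list), 228 in replicate 1 and 273 in replicate 2. That summit was 152 bp from a 5′ end of the host, cdc-48.1, which encodes an AAA ATPase of ubiquitin-dependent protein turnover. It fell in that gene's promoter window. The second, at ZK994.7 in an intron of pxn-1, had a signal of 438 (rank 19), with 209.5 in replicate 1 and 233 in replicate 2. It lay 19 bp upstream of the snoRNA start and 5671 bp from the nearest 5′ end of a protein-coding gene, so here the host promoter was far away.

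The third, with a signal of 308 (136 in replicate 1, 173 in replicate 2), was 40 bp inside C51F7.4 on chromosome V, a snoRNA gene that overlaps an exon of frm-7. It was also 69 bp upstream of a second snoRNA gene, C51F7.3, so that the nearest gene and the gene downstream differ. T03F7.8 had a signal of 300.5, with 175 in replicate 1 and 129 in replicate 2, and a summit 59 bp upstream of its start. W03C9.9 had 291, with 140.0 in replicate 1 and 159 in replicate 2, at 35 bp upstream. Both show the A-box-like and the B-box-like word in the sequences above.

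The remaining 10 of the 15 strongest had signals between 203 and 260.0, and in each of them both replicates held a peak. Of these, 6 lay within 100 bp upstream of a snoRNA start: F59C6.15 (-55 bp), Y23H5B.10 (-49 bp), F55A11.10 (-16 bp), T19B4.8 (-42 bp), T02E1.9 (-12 bp) and T06C12.16 (-60 bp). F30H5.4 and C04G6.12 had summits 9 and 21 bp inside the gene, C04G6.12 in an intron of the MAP kinase gene mpk-2 and on the opposite strand. The summit at B0334.12, in an intron of the potassium channel gene twk-5, lay 131 bp past the start and beyond the gene's end, and the one at W06H8.17 lay 220 bp upstream. The weakest snoRNA summits were those of ZK546.18 (29.5), K07E1.2 (29.3) and R151.11 (28.7, rank 26020), the last in an intron of the ribosomal protein gene rpl-6. At the edge of the distance rule, the summits of C06A1.9 at 495 bp (500.3) and B0412.7 at 496 bp (45.2) were just inside. Those nearest to K08E3.11 at 502 bp (34.9) and F28D1.13 at 507 bp (69.6) were just outside.

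Intronic and free-standing snoRNA genes had summits at nearly equal shares. Of 172 snoRNA genes inside an intron of a protein-coding gene, 107 had a joint summit within 500 bp (62.2%, interval 54.8 to 69.1%), and of 122 free-standing ones, in no protein-coding gene, 78 did (63.9%, interval 55.1 to 71.9%). Another 44 genes overlapped an exon, with 24 having a summit, and 6 overlapped a protein-coding gene in part. Counted by summit, 124 of the 260 had an intronic nearest gene (47.7%, interval 41.7 to 53.8%), 99 a free-standing one, 32 an exon-overlapping one and 5 a partly overlapping one. Of all 344 genes 172 were intronic, so the summits were divided much as the genes were.

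The kept share was 42 of 124 at intronic genes (33.9%, interval 26.1 to 42.6%) and 34 of 99 at free-standing genes (34.3%, interval 25.7 to 44.1%). At exon-overlapping genes it was 5 of 32 (15.6%, interval 6.86 to 31.8%). The intervals overlap, so these shares were not told apart by counting error. Median signals were 60.5 at intronic, 67.2 at free-standing and 41.1 at exon-overlapping genes. Both replicates held a peak at 71.0% of the intronic summits and 79.8% of the free-standing ones.

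The position of the summits was also set side by side for the 2 kinds of gene. The 1 to 100 bp upstream held 28 of 124 intronic summits (22.6%, interval 16.1 to 30.7%) and 34 of 99 free-standing ones (34.3%, interval 25.7 to 44.1%), with median offsets of 24 and -9 bp. These intervals overlap as well. Among kept summits it held 18 of 42 intronic and 20 of 34 free-standing ones. The host strand could be compared only in small numbers: of 18 summits at intronic genes opposite to their host 8 were kept (44.4%, interval 24.6 to 66.3%), and of 106 on the host's strand 34 were (32.1%, interval 24.0 to 41.5%).

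The 124 intronic summits fell in 95 host genes, and the 42 kept ones in 41. Ribosomal protein genes, which are classic snoRNA hosts, were told by their symbols alone (rpl-, rps- or rla-). Any that bear another symbol were counted with the other hosts. Genes with these symbols made up 13 of the hosts in the annotation, with 19 intronic snoRNA genes, and all 13 had a snoRNA summit. Of the other hosts, 81 of 138 had one, beside 1 translation factor gene, told by the symbols eif-, eef- or ife-. The 21 summits in ribosomal protein genes stood apart in position: 0 lay within 1 to 100 bp upstream of a snoRNA start (interval 0 to 15.5%), 0 lay inside a snoRNA gene, and 16 lay in a promoter window. At the 103 summits of other hosts, translation factors included, 28 were within 1 to 100 bp upstream (27.2%, interval 19.5 to 36.5%), 22 were inside the gene and 32 were in a promoter window. The kept share was 5 of 21 in ribosomal protein hosts (23.8%, interval 10.6 to 45.1%) and 37 of 103 in other hosts (35.9%, interval 27.3 to 45.5%).

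The 5 kept ribosomal protein summits were in rps-12, rpl-7A, rps-13, rpl-24.1 and rps-4. The summit in rps-12, with a signal of 203 (113 in replicate 1, 91.9 in replicate 2), lay 237 bp upstream of F54E7.10 and 136 bp from a 5′ end of the neighbouring gene ska-3. In rpl-7A the signal was 181 (105 in replicate 1, 69.1 in replicate 2), at 60 bp from the 5′ end of rpl-7A and 342 bp upstream of Y24D9A.9. In both, the summit was nearer to a protein-coding 5′ end than to the snoRNA start.

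Among the other hosts, the kept summits just upstream of an intronic snoRNA were mostly outside promoter windows. Of 18 such summits, 1, at F55A11.10, was in a promoter window. They included C27H6.5 in unc-41, a stonin gene of synaptic vesicle recycling (203, at -52 bp), C16D9.11 in rol-3 (179, at -5 bp), F11A10.9 in rbm-34, an RNA-binding protein gene (152, at -17 bp), M106.6 in mix-1, a condensin subunit gene (141, at -42 bp), and T08B2.13 in fars-1, which encodes a phenylalanyl-tRNA synthetase subunit (143, at -91 bp). Apart from C27H6.5 and M106.6, which belong to hosts with more than 1 summit, these examples were picked after their values were seen.

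Several snoRNA genes had more than 1 summit. C04A2.16, in an intron of egl-27, a chromatin regulator gene, had kept summits at -407 bp (203) and -202 bp (95.5). F39B2.14, in tmem-107, had 3 summits, kept at -108 bp (157) and 482 bp (92.6) and not kept at 238 bp (39.0). The free-standing Y67A10A.14 had kept summits at -73 bp (91.7) and 127 bp (107). K10G6.10, in sea-2, a gene of sex determination, had 3 summits of which 1 was kept. At ZK994.7 a second summit at 186 bp had a signal of 40.0, and at F55A11.10 a second one at 184 bp had 66.9, both weaker than the first. Most snoRNA peaks, 253 of 260, had the same width of 420 bp, and neighbouring peaks overlap, so paired summits need not be separate sites.

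The words in the upstream sequences were then counted. Over the 150 bases before the start, read on the gene's strand, the 344 snoRNA genes were divided into 46 with a kept summit there, 29 with another summit there, 139 with a summit elsewhere within 500 bp and 130 with none. The B-box-like word GTTCNA was found in 24 of the 46 (52.2%, interval 38.1 to 65.9%), 9 of the 29, 19 of the 139 and 22 of the 130 (16.9%, interval 11.4 to 24.3%), against 14.6% of 19973 protein-coding genes over the same length before an annotated 5′ end. The A-box-like word TGGCNNAG was found in 15 of the 46 (32.6%, interval 20.9 to 47.0%), 3 of the 29, 10 of the 139 and 7 of the 130 (5.38%, interval 2.63 to 10.7%), against 1.28% of protein-coding genes. Both words were more frequent before genes with a kept summit upstream than before genes with no summit, and the intervals did not overlap. Since both words were chosen after the upstream sequences had been looked at, this difference can follow from the choice and is a description only. The same limit applies to the ordered pair and the third word below.

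The longer word GTTCGANNC, the core of the B box as known from tRNA genes, gave 11 of the 46 (23.9%, interval 13.9 to 37.9%) and 2 of the 130 (1.54%, interval 0.423 to 5.44%), against 0.320% of protein-coding genes. It overlaps GTTCNA, since each GTTCGANNC holds that word. In tRNA genes an A box precedes a B box by a short stretch. A TGGCNNA followed after 20 to 70 bases by a GTTCNA was found in 13 of the 46 (28.3%, interval 17.3 to 42.5%), 3 of the 29, 4 of the 139 and 4 of the 130 (3.08%, interval 1.20 to 7.64%), against 0.210% of protein-coding genes. The words were mostly on the gene's strand: on the opposite strand TGGCNNAG was found in 3 of the 46, GTTCNA in 2 and the ordered pair in 0.

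The third word TGTCGG was found in 6 of the 46 (13.0%, interval 6.12 to 25.7%), 7 of the 29 (24.1%, interval 12.2 to 42.1%), 16 of the 139 and 8 of the 130 (6.15%, interval 3.15 to 11.7%), against 1.22% of protein-coding genes. For the 46 genes this interval overlaps that of the 130 genes without a summit, and for the 29 genes it does not. For the A-box-like and the B-box-like word it was the other way round: the interval of the 29 overlaps that of the 130, and the interval of the 46 does not. In the 46 genes it never stood together with them: 30 held an A-box-like or B-box-like word, 6 held TGTCGG, 10 held neither kind and 0 held both. The kinds did occur together elsewhere: 2 of the 29 genes held both, and so did 1 of the 139. Of the 130 genes without a summit, 28 held an A-box-like or B-box-like word, 8 held TGTCGG, 1 of them both kinds, and 95 held neither. Words that run across the annotated start were not counted. Y38F2AR.14, among the 10 genes with neither kind, has a GTTCGA whose last base is the first base of the gene. For the same reason it was not counted for GTTCGANNC. A word match is a description of letters and does not show that a factor binds there.

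The words stood at recurring distances from the snoRNA start. Across the 46 genes the first base of the A-box-like word lay at a median of -59, with quartiles of -65.5 and -55.5, and that of the B-box-like word at -14, with quartiles of -26 and -11.5. The third word stood at -58, with quartiles of -60 and -49.25, about where the A-box-like word stands in the other genes. The summits themselves were scattered over these positions, with the first base of the A-box-like word a median of 14 bp upstream of the summit and that of the B-box-like word 25 bp downstream.

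**Figure D4:**
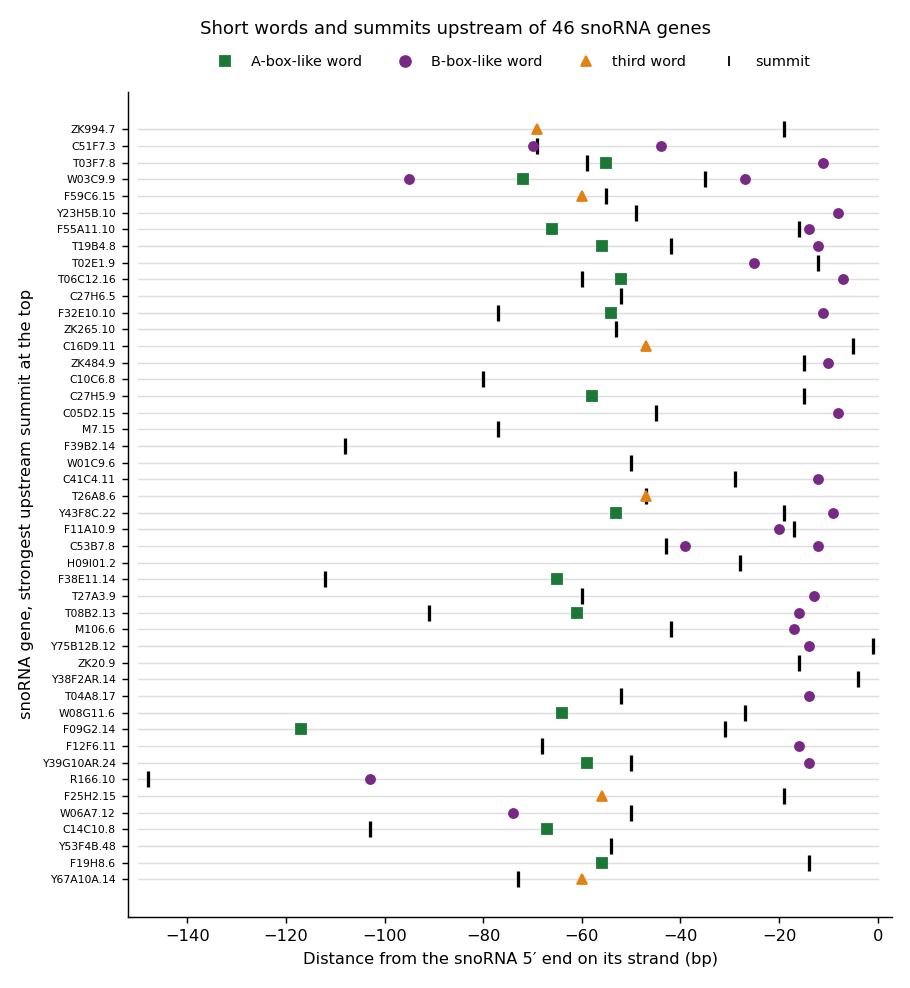
Positions of the A-box-like word (squares), the B-box-like word (circles), the third word (triangles) and the strongest kept summit (black ticks) before the start of the 46 snoRNA genes with a kept summit within 150 bp upstream, in bp from the 5′ end, strongest at the top. Squares gather near -59, circles near -14 and triangles near -58, and no line holds a triangle together with either other mark.

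**Figure D5:**
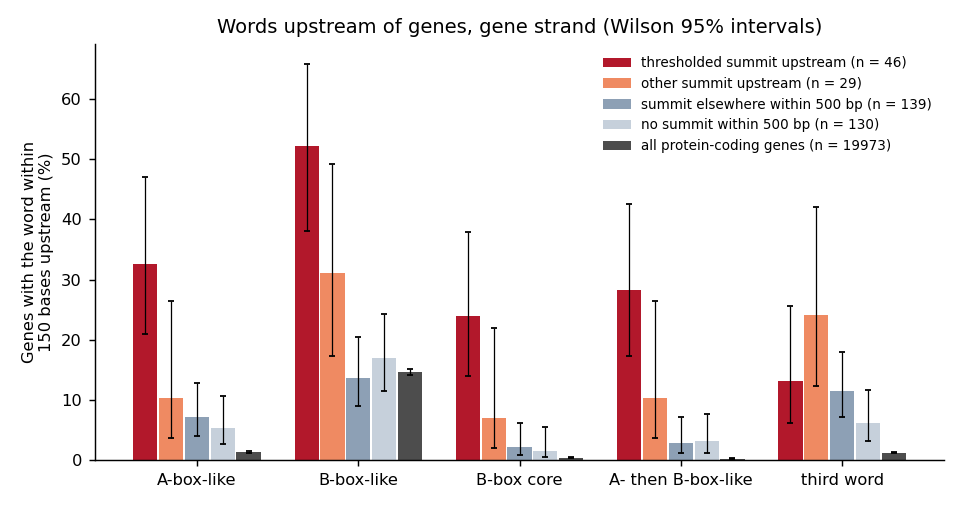
Percent of genes with each word within 150 bases upstream on the gene's strand, with Wilson 95% intervals, for the 4 sets of snoRNA genes and for all protein-coding genes. Red bars, for the 46 genes with a kept summit upstream, are the tallest for every word except the third, where the 29 genes with another summit upstream reach 24.1%.

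Around the summits themselves, within 50 bp to either side and on both strands, GTTCGANNC was found at 13 of the 84 kept snoRNA summits (15.5%, interval 9.27 to 24.7%). It was found at 1.21% of the 1406 kept summits away from snoRNA and tRNA genes and at 38.4% of the 177 kept summits near tRNA genes. The words GACGCA and CACGTG had lower shares at the kept snoRNA summits than at these 1406 summits, within overlapping intervals. GACGCA was at 7 of the 84 (8.33%, interval 4.10 to 16.2%) and at 13.7% of the 1406, and CACGTG at 3 of the 84 (3.57%, interval 1.22 to 9.98%) and at 9.46% of the 1406 (interval 8.04 to 11.1%). Over all joint summits the shares were 4.10% for GACGCA and 2.96% for CACGTG. With summits not kept included, GACGCA went the other way. It was at 18 of the 260 snoRNA summits (6.92%, interval 4.42 to 10.7%). Of the 25467 joint summits away from snoRNA and tRNA genes it was at 4.09% (interval 3.86 to 4.34%), and these intervals do not overlap. CACGTG was at 6 of the 260 (2.31%) and at 3.00% of the 25467.

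Letters of the 2 snoRNA families were read from the annotated gene ends, by a simple rule that does not assign a gene to its family. Box C/D letters (TGATGA within the first 20 bases and CTGA within the last 20) were found in 13 of the 344 genes, and box H/ACA letters (ACA in the last 8 bases without the C/D letters) in 91, which left 240 with neither. A rule of this kind depends on where the annotation ends a gene: M106.6, for example, has H/ACA letters by the rule but also CTGA just before its last bases, as a box C/D gene would. A joint summit was within 500 bp of 9 of the 13 and 68 of the 91 (74.7%, interval 64.9 to 82.5%), against 137 of the 240 (57.1%, interval 50.8 to 63.2%). The kept shares of their summits were 4 of 10 at genes with C/D letters, 24 of 75 at genes with H/ACA letters (32.0%) and 56 of 175 at genes with neither (32.0%).

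Protein-coding genes of snoRNA processing and snoRNP assembly were looked up by a list of 18 names, of which 14 were symbols of the annotation. A joint summit lay in the promoter window of 13 of the 14, against 35.0% of all protein-coding genes, and a kept summit in that of 2, against 4.34%. These are small counts for which no intervals were made, and the 2 kept summits are not read as a difference. The 2 genes were fib-1, which encodes the methyltransferase fibrillarin of box C/D particles (signal 116, rank 977), and ruvb-2, an AAA ATPase gene of particle assembly (146, rank 582). Below the threshold were nol-56 (81.3) and nol-58 (78.1), core proteins of C/D particles, and dkc-1 (73.2), the pseudouridine synthase dyskerin of H/ACA particles. Its partners nola-3 and Y48A6B.3 had 80.1 and 59.9. Among processing enzymes, the signal was 62.1 at the exonuclease gene xrn-2 and 33.4 at the cap methyltransferase gene tgs-1. The summit at nol-56 is itself a snoRNA summit. The nucleolar protein gene dao-5 had no joint summit in its window.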

How the data were processed

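ChIP-seq peak lists of 2 biological replicates (1 group) were used, 4 lists in narrowPeak format on ce11, per the labels: 1 for each replicate, 1 for both together and 1 thresholded by IDR. The authors deposited a signal per peak, a score without a unit, and a −log10 q-value, which was not used. The summit position is also theirs. The aligner, the peak caller and the depth were not given in the sources used here, and the control alignment was not analysed here. Replicates are separate biological samples per the labels. Genes came from Ensembl release 115 and sequence from RefSeq, both of WBcel235. Positions are 1-based. A summit within 500 bp of the body of a snoRNA gene was a member. Kept summits are identical rows of the thresholded list. Scripts used python 3.11.15, numpy 2.4.6, pandas 2.3.3, scipy 1.17.1 and matplotlib 3.10.9, and the distance and offset functions were tested on simulated positions. The word searches were not tested in this way. No significance test was run. The members and lists were chosen with earlier results of these data known. Named are at most 15 kept or strongest summits, hosts and clusters with 2 or more summits, the summits next to the 500 bp limit and the 3 weakest. Alternatives tried are given in the closing section.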

Additional observations from a re-analysis of the deposited data

How the results depend on the processing

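The 8 main values were recomputed under 11 alternatives, which gave 87 values. Of these 73 stayed within the counting interval or within 1.5 times the count, and 14 did not. Part of the 73 could not move, since taking the 5000 strongest joint peaks as the stricter list changes the kept share alone. The 2 alternatives on tRNA genes and pseudogenes changed few summits, with 264 and 256 against 260. The tally is therefore no measure of stability. Nearer summits were stronger: with a limit of 250 bp the kept share was 39.5%, the median rank 12.5% and the share of snoRNA genes with a summit 48.3%. With 1000 bp there were 391 summits, with a kept share of 25.3%, a median rank of 22.6% and 71.8% of genes. Requiring the peak to overlap the gene gave 39.0%, 12.5% and 46.5%. Leaving out summits in promoter windows left 159 summits and 40.7% of genes, and the promoter share itself has no value then. Taking the 5000 strongest joint peaks, 19.0% of the list, as the stricter list gave a kept share of 51.5%. With each replicate's own list the number of summits was 261 to 269, the kept share 34.1 to 36.1%, the median rank 19.6 to 21.9%, the genes with a summit 62.2 to 63.7%, the intronic share 47.6 to 47.9%, the upstream share 45.4 to 49.8%, the share in both replicates 68.6 to 69.5% and the promoter share 36.4 to 37.9%. For these replicate lists a summit counted as kept if it lay inside any peak of the thresholded list. That rule is looser than identical rows, and the thresholded list itself rests on both replicates. Leaving out summits near tRNA pseudogenes as well, an alternative chosen after seeing the data, left 256 summits with a kept share of 31.6%. No paired analysis was possible because there is 1 group. The unknown read depth limits what the weakest peaks can show.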
